A study of Mus musculus with 6 samples.

Results

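The primary granule genes of neutrophil precursors are taken here as Elane, Mpo, Prtn3, Ctsg and Ms4a3, chosen by gene symbol, and all 5 were found among the 47729 genes of the deposited count table. The series holds bulk RNA-seq of 3 cluster KO libraries, from mice without the SNORD113-114 cluster of small nucleolar RNAs, and 3 wildtype libraries, all labelled bone marrow. No age, sex, strain, deletion method or cell sorting step is given in the sources used here, and no label ties a library to 1 animal, so that p-values measure the spread between libraries, which may be technical. The series asks which genes differ between the knockout and wildtype mice.

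Neutrophils store their weapons in granules that are filled in a fixed order as the cell matures. Primary, or azurophil, granules are made first, in promyelocytes, and the genes for their contents are silenced before those for secondary and tertiary granules come on. Elane encodes neutrophil elastase, Prtn3 proteinase 3 and Ctsg cathepsin G, which are related serine proteases. Mpo encodes myeloperoxidase, the heme enzyme that makes hypochlorous acid from hydrogen peroxide and chloride. Ms4a3 encodes a membrane protein of granulocyte-monocyte progenitors and their early progeny and is not itself a granule enzyme. PU.1, C/EBP proteins, MYB and RUNX1 are known activators of such genes.

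The genes lie on 4 chromosomes (GRCm38, which mm10 also names; gene spans from GENCODE M21). Prtn3 (chromosome 10, 79874476 to 79883174) and Elane (chromosome 10, 79886247 to 79888215) are neighbours on the plus strand with 3072 bases between them. Mpo lies on the plus strand of chromosome 11 (87793581 to 87804413), Ctsg on the minus strand of chromosome 14 (56099881 to 56102574) and Ms4a3 on the minus strand of chromosome 19 (11629496 to 11640851). Their promoters are shown because all 5 genes moved together across the libraries, as described below. Each window of 300 bases runs 5′ to 3′ on the gene's own strand, from 250 bases before the RefSeq start site to 50 bases into the gene (GRCm38.p6), and capitals mark GGAAGT, an ETS-type sequence that PU.1 can bind, or its reverse complement. The windows are chr10:79886062-79886361 (plus) for Elane, chr11:87793534-87793833 (plus) for Mpo, chr10:79879417-79879716 (plus) for Prtn3, chr14:56102525-56102824 (minus) for Ctsg and chr19:11640802-11641101 (minus) for Ms4a3.
Elane: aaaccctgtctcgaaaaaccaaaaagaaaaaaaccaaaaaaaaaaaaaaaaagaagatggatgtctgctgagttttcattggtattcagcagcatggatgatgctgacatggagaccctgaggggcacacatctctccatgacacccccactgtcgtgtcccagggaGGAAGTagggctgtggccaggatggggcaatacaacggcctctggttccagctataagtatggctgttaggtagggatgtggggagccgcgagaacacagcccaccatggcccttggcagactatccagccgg
Mpo: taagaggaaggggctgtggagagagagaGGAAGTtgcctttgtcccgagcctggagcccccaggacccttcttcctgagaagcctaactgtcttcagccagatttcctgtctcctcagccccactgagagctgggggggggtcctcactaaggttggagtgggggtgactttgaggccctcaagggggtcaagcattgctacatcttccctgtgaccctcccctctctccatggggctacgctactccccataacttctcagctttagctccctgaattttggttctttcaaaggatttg
Prtn3: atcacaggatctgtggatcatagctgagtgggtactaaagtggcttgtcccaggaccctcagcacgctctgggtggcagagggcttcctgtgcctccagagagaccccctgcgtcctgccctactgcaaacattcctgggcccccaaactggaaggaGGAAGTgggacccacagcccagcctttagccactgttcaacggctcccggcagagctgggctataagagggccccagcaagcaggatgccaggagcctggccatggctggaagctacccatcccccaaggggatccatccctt
Ctsg: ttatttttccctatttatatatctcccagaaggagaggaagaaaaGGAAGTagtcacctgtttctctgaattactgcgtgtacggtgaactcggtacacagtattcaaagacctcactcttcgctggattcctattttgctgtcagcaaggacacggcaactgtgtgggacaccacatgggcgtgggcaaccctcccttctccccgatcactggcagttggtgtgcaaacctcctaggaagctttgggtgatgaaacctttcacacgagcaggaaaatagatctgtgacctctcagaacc
Ms4a3: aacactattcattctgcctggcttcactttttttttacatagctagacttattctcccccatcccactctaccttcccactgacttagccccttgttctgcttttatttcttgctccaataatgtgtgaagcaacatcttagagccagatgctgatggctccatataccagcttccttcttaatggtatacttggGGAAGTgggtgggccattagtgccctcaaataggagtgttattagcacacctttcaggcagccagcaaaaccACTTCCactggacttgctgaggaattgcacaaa

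All 5 windows held GGAAGT on at least 1 strand, against 23.8% of the 32851 RefSeq promoter windows of this length. The match began 83 bases upstream of the start in Elane and 93 bases upstream in Prtn3. It began 222 bases upstream in Mpo, 205 in Ctsg and 55 in Ms4a3, which had another on the opposite strand within the gene. Elane and Prtn3 shared a layout, with AACGG, a MYB-type sequence, 50 and 55 bases upstream and TATAA 31 and 32 bases upstream. AACGG occurred in 17.4% and TATAA in 24.9% of all windows, and TATAA also occurred on the opposite strand of Ctsg, 236 bases upstream. TTGCNNAA, a C/EBP-type sequence, occurred in Ms4a3 alone (10.8% of all windows). TGTGGT, a RUNX-type sequence, occurred on the opposite strand of Ctsg alone (16.8%), and AATCAC, a GFI1-type sequence, in none (10.4%). Every motif was searched on both strands, no matches overlapped each other, and the motifs were chosen with the sequences in view. A match describes letters only, and a link between the matches and the shared movement of the genes was not tested.

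**Figure D1:**
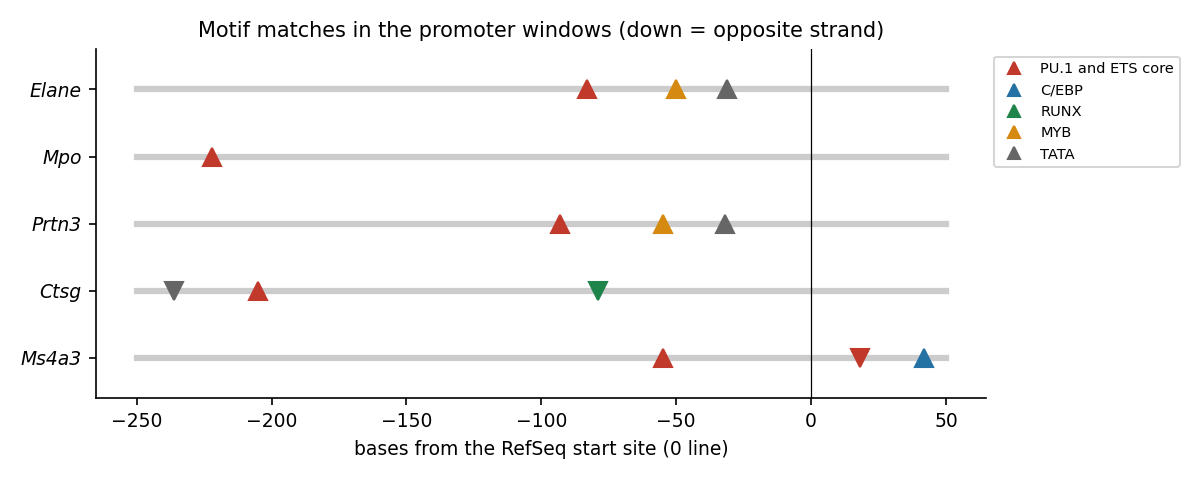
Position of motif matches in the 5 promoter windows, in bases from the RefSeq start site (line at 0), one row per gene; triangles pointing up are on the gene's strand and triangles pointing down on the opposite strand. Red triangles (GGAAGT) appear in every row, and Elane and Prtn3 share the order of GGAAGT, MYB-type and TATAA matches.

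Gene totals ran from 17663369 to 23459168 counts per library, and levels are given as CPM, read counts scaled to library size with TMM factors. Sex-linked genes moved with genotype. Xist, expressed from the inactive X chromosome of females, was at 1.92, 0.0840 and 1.58 CPM in cluster KO marrow and 228, 249 and 247 CPM in wildtype marrow, and the Y-linked Ddx3y was at 77.7, 87.0 and 100.2 CPM against 27.8, 18.1 and 21.4 CPM. Each wildtype library held Xist and Y-linked RNA together, and no label says whether animals of both sexes were pooled. Effects of genotype and of the sex makeup of the libraries therefore cannot be told apart in any comparison below. Summed marker levels were 2255 to 2408 CPM in cluster KO and 759 to 816 CPM in wildtype for the B lineage, and 1172 to 1624 CPM against 1675 to 2120 CPM for erythroid cells. The erythroid markers were mixed. Of 14, all tested as described below, 0 rose and 7 fell, against 15.9 and 12.1% of all genes tested. Klf1, an erythroid marker, was at 299, 419 and 484 CPM in cluster KO and 352, 284 and 258 CPM in wildtype libraries. In bulk RNA, fewer cells of a type and less RNA per cell cannot be told apart.

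No primary granule gene passed the test between the genotypes, while each varied widely between the cluster KO libraries. Mean levels were 294 ± 369 CPM in cluster KO marrow against 219.8 ± 95.4 CPM in wildtype for Elane, 154 ± 117 against 143 ± 43.1 CPM for Mpo and 149.9 ± 90.6 against 137 ± 30.2 CPM for Prtn3 (SD, n = 3 each). Ctsg averaged 83.0 ± 90.1 against 80.5 ± 46.1 CPM and Ms4a3 50.2 ± 50.4 against 49.7 ± 21.9 CPM. Of the 5 genes, 0 passed the test in either direction, against 27.9% of the 15686 genes tested (edgeR quasi-likelihood test, Benjamini-Hochberg adjusted p under 0.05). At an unadjusted p under 0.05 the count was also 0 of 5, against 41.0% of all genes, and DESeq2 gave 0 of 5 at either threshold. The libraries of the genotypes overlapped for all 5 genes, whereas they did not for 46.0% of the genes tested. The median log2 fold change was 0.11 over the 5 genes and 0.00 over all genes tested. All fold changes below are cluster KO over wildtype.

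Elane, the elastase gene, was at 709, 2.18 and 171 CPM in cluster KO 1, 2 and 3 and at 251, 296 and 113 CPM in wildtype 1, 2 and 3. The highest and the lowest library were thus both cluster KO, and all wildtype libraries lay between them. The low value rests on 52 reads, against 15547 and 3677 reads in cluster KO 1 and 3 and 2203 to 5556 reads in wildtype marrow. Elane was 325 times higher in cluster KO 1 than in cluster KO 2, and the lowest wildtype library was 51.6 times above cluster KO 2. Its log2 fold change was 0.42 (SE 1.73, 95% interval -4.30 to 5.14, edgeR adjusted p = 0.885). An interval this wide holds large changes in both directions.

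Ctsg, the cathepsin G gene, repeated this picture on a smaller scale, at 183, 7.27 and 59.1 CPM in cluster KO marrow and 98.5, 115 and 28.0 CPM in wildtype marrow. Cluster KO 1 was 25.1 times above cluster KO 2, and the wildtype libraries themselves differed by up to 4.10 times. The log2 fold change was 0.04 (SE 1.23, 95% interval -3.25 to 3.34, edgeR adjusted p = 0.982).

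Prtn3, the neighbour of Elane, varied least, at 253, 84.9 and 112 CPM in cluster KO marrow and 130, 170 and 111 CPM in wildtype marrow. Cluster KO 2 was again the lowest library, but by 2.99 times below cluster KO 1 and 1.31 times below the lowest wildtype library. The log2 fold change was 0.13 (SE 0.34, 95% interval -0.63 to 0.88, edgeR adjusted p = 0.81), the narrowest interval of the 5 genes. Its annotated span overlaps Plppr3 on the opposite strand, and the libraries keep no strand. The overlap runs only from 79874476 to 79874634, before the promoter window shown above. Plppr3 itself was at 7.22 to 8.53 CPM in cluster KO marrow and 8.22 to 9.95 CPM in wildtype marrow.

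Mpo was at 262, 30.6 and 171 CPM in cluster KO marrow and 158, 176 and 94.3 CPM in wildtype marrow. Here cluster KO 3 lay close to wildtype 2, and only cluster KO 1 and 2 fell outside the wildtype range. The log2 fold change was 0.11 (SE 0.76, 95% interval -1.83 to 2.05, edgeR adjusted p = 0.928). The antisense gene Gm11505, which overlaps Mpo, had 0 to 8 reads in the 6 libraries. Lpo, the related lactoperoxidase gene next to Mpo, had 0 reads in all cluster KO libraries and 5, 0 and 0 in wildtype marrow, and Epx, the eosinophil peroxidase gene, was at 0 CPM in 5 of the 6 libraries, where a count of 0 allows 0.126 to 0.170 CPM at 95% confidence (counting error alone).

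Ms4a3 was at 108, 12.8 and 30.3 CPM in cluster KO marrow and 44.3, 73.8 and 30.9 CPM in wildtype marrow. Its log2 fold change was 0.02 (SE 0.81, 95% interval -2.01 to 2.04, edgeR adjusted p = 0.991). Cluster KO 1 was 8.42 times above cluster KO 2, close to the 8.57 times seen for Mpo.

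**Figure D2:**
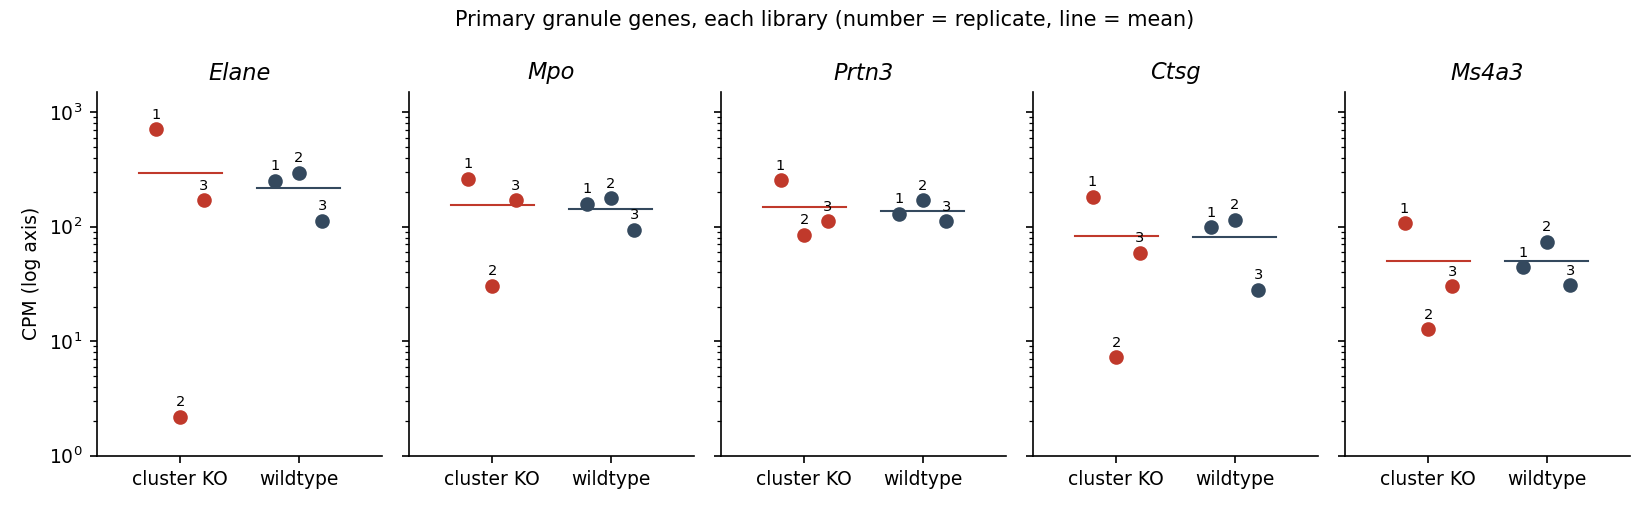
CPM (log axis) of the 5 primary granule genes, one panel per gene, with one point per library numbered by replicate and a line at the mean of each genotype. In every panel cluster KO 1 is the highest and cluster KO 2 the lowest of the 6 libraries, and the genotype means are close.

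The order of the libraries was nearly the same for the 5 genes. From high to low it was cluster KO 1, wildtype 2, wildtype 1, cluster KO 3, wildtype 3 and cluster KO 2 for Elane, Prtn3 and Ctsg. Mpo differed by the places of cluster KO 3 and wildtype 1, and Ms4a3 by those of wildtype 3 and cluster KO 3. Cluster KO 1 was above every wildtype library by 1.46 (Ms4a3) to 2.40 times (Elane), and cluster KO 2 below every wildtype library by 1.31 (Prtn3) to 51.6 times (Elane). Summed over the 5 genes, the level was 1515, 138 and 542 CPM in cluster KO marrow and 682, 831 and 377 CPM in wildtype marrow.

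Each library was then set against the geometric mean of the other two of its genotype, over the 9056 tested genes with a mean of at least 10 CPM (0.1 CPM added). In cluster KO 2, Elane was the lowest of all 9056 genes (log2 ratio -7.25), Ctsg ranked 2 from the bottom (-3.82), Mpo 4 (-2.79), Ms4a3 6 (-2.15) and Prtn3 11 (-0.99). In cluster KO 1 the same genes stood at the other end, with Elane first from the top (5.17), Ctsg ranked 2 (3.13), Ms4a3 3 (2.45), Mpo 7 (1.86) and Prtn3 13 (1.38). The cluster KO ranks are linked, since each library is part of the other's comparison. Among wildtype libraries, wildtype 3 had Ctsg as its lowest gene (-1.92), Elane ranked 13 from the bottom (-1.27), Ms4a3 79 (-0.88), Mpo 105 (-0.83) and Prtn3 776 (-0.42). In wildtype 2 the genes leaned the other way, with Ctsg ranked 6 from the top (1.13) and Ms4a3 12 (0.99). The highest wildtype library was 1.53 (Prtn3) to 4.10 times (Ctsg) above the lowest.

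The standard deviation of log2 CPM within cluster KO was 4.31 for Elane, 2.35 for Ctsg, 1.64 for Mpo, 1.54 for Ms4a3 and 0.82 for Prtn3, against a median of 0.20 over the 9056 genes. Only 3 genes had a larger value than Elane. Within wildtype it was 1.11 for Ctsg, ranked 5 among these genes, 0.74 for Elane, 0.63 for Ms4a3, 0.48 for Mpo and 0.31 for Prtn3, against a median of 0.15. Ctsg and Elane were thus among the most variable genes in wildtype marrow too, where no library was near 0.

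**Figure D3:**
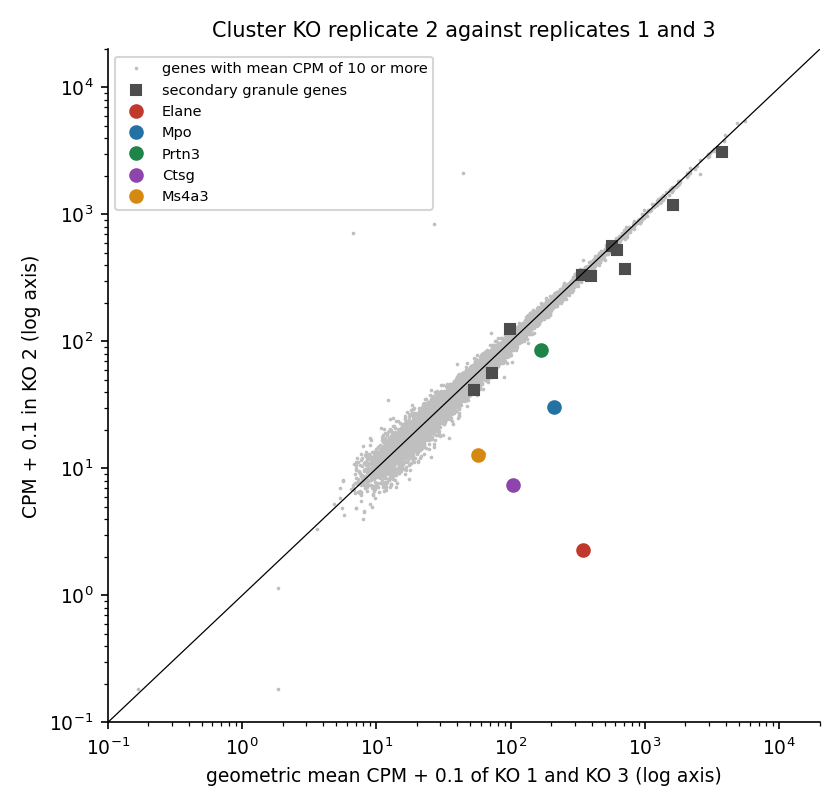
CPM + 0.1 in cluster KO 2 against the geometric mean of CPM + 0.1 in cluster KO 1 and 3, log axes, for genes with a mean of 10 CPM or more (grey), secondary granule genes (dark squares) and the 5 primary granule genes (coloured); the line marks equal levels. The coloured points fall below the line, Elane farthest at 2.18 CPM in cluster KO 2 and Prtn3 nearest; the lowest square, Chil3 at a log2 ratio of -0.93, lies about as far below it as Prtn3 at -0.99.

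The mix of the 5 transcripts also changed, which no scaling of a library can alter. Elane made up 46.8, 1.59 and 31.5% of their summed CPM in cluster KO marrow and 36.8, 35.6 and 29.9% in wildtype marrow. Prtn3 made up 16.7, 61.7 and 20.6% against 19.0, 20.5 and 29.5%. The ratio of Elane to its neighbour Prtn3 was 2.80, 0.0257 and 1.53 in cluster KO marrow and 1.93, 1.73 and 1.01 in wildtype marrow, so cluster KO 2 lay far outside a range that held the other 5. The ratio of Mpo to Ms4a3 stayed within 2.39 to 5.64 in cluster KO marrow and 2.39 to 3.58 in wildtype marrow, with cluster KO 2 inside the wildtype range at 2.39. Per kilobase of exon, Elane reached 721, 2.22 and 173 CPM per kb in cluster KO marrow and 255, 301 and 115 in wildtype marrow, and Mpo 76.5, 8.93 and 49.9 against 46.3, 51.5 and 27.5.

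Leaving out single libraries turned the direction of the fold changes. Without cluster KO 2 all were positive, at 1.004 for Elane (SE 0.65, edgeR adjusted p = 0.343), 0.60 for Mpo (SE 0.27, 0.16), 0.59 for Ctsg (SE 0.64, 0.573), 0.48 for Ms4a3 (SE 0.48, 0.535) and 0.41 for Prtn3 (SE 0.31, 0.389), with adjusted p second in each bracket. Without cluster KO 1 all were negative, at -1.37 for Elane (SE 1.86, edgeR adjusted p = 0.636), -1.30 for Ctsg (SE 1.24, 0.499), -1.22 for Ms4a3 (SE 0.42, 0.0502), -0.52 for Mpo (SE 0.87, 0.695) and -0.49 for Prtn3 (SE 0.19, 0.0687). None passed the threshold either way.

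Other genes stood apart in these libraries as well. Only Elane and Xist, of the 9056 genes, were at least 4 times lower in cluster KO 2 than in every other library. The plasma cell gene Jchain was at 1.41 CPM in cluster KO 1, against 839 and 472 CPM in cluster KO 2 and 3 and 245 to 474 CPM in wildtype marrow. The mast cell protease genes Cma1 and Tpsb2, chosen after their values were seen, were highest in cluster KO 2, with Cma1 at 0, 28.6 and 0 CPM in cluster KO marrow and 5.24, 0 and 0.870 CPM in wildtype marrow, and Tpsb2 at 0, 19.9 and 0 against 0.768, 0 and 0 CPM. Of other mast cell and basophil genes, Cpa3 and Ms4a2 did not share this. Cpa3, the mast cell carboxypeptidase gene, was at 171, 137 and 146 CPM against 79.0, 60.4 and 54.8 CPM, and Ms4a2 was at 0 CPM in cluster KO 2. Mcpt8 was at 3.97, 10.9 and 6.91 CPM in cluster KO marrow, highest there in cluster KO 2, but at 15.1 CPM in wildtype 1. The part of such differences in the level of the primary granule genes was not tested. The share of reads that HTSeq assigned to no feature was 10.1, 8.59 and 7.29% in cluster KO marrow and 10.03, 10.5 and 11.1% in wildtype marrow. This order is unlike that of Elane, and a link between them was not tested.

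Some other contents of the primary granule, many of them lysosomal proteins found in other cells too, were higher in cluster KO. Of 13 such genes 12 were tested, 6 rose and 0 fell, against 15.9 and 12.1% of all genes tested, and their median log2 fold change was 0.71. Lyz2, the lysozyme gene of neutrophils and macrophages, was at 3044, 2098 and 2145 CPM against 672, 752 and 706 CPM, a log2 fold change of 1.77 (SE 0.14, edgeR adjusted p = 2.1e-04). Hexa, a lysosomal enzyme gene, rose by 0.85 (SE 0.16) on the log2 scale. Cd68, a lysosomal membrane gene, rose by 0.91 (SE 0.23, edgeR adjusted p = 0.016), a call lost without cluster KO 2 (0.074) or wildtype 3 (0.0597). Prss57, which encodes another serine protease of this granule and was looked up outside the naming rule, was at 31.0, 12.9 and 16.5 CPM against 21.4, 17.3 and 11.3 CPM (0.27, SE 0.33, edgeR adjusted p = 0.576). Like the 5 genes it was highest in cluster KO 1, but its lowest library was wildtype 3. Cst7, which encodes a cystatin and was chosen after its values were seen, was at 46.6, 22.3 and 29.6 CPM against 36.0, 27.7 and 24.5 CPM, and was, like the 5 genes, highest in cluster KO 1 and lowest in cluster KO 2. Cd63, a granule membrane gene, was at 0.08 (SE 0.12, edgeR adjusted p = 0.622). Without cluster KO 2, or without wildtype 3, 3 genes of the list rose. Monocyte and macrophage markers summed to 506, 368 and 323 CPM in cluster KO and 265, 245 and 259 CPM in wildtype libraries. Of these 17 markers 16 were tested, 3 rose and 0 fell, against 15.9 and 12.1% of all genes tested. Their log2 fold changes ran from -0.52 (Mpeg1, looked up outside the naming rule) to 2.87 (Cd14). Their part in the result for the other primary granule contents was not tested.

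Ctsc encodes the peptidase that activates elastase, cathepsin G and proteinase 3. It was at 91.8, 126 and 191 CPM in cluster KO marrow and 53.0, 53.9 and 53.7 CPM in wildtype marrow, with no overlap (log2 fold change 1.35, SE 0.23, edgeR adjusted p = 0.00362). Its order within cluster KO was unlike that of the proteases, with the highest value in cluster KO 3. Serpinb1a, an inhibitor of these proteases, rose by 1.01 (SE 0.15). Srgn, the proteoglycan core on which they are packed, fell by 0.30 (SE 0.10, edgeR adjusted p = 0.0425), a call lost without any single library other than cluster KO 1 (adjusted p 0.0908 to 0.169). In all 6 of 11 genes of this list were tested, and 2 rose and 1 fell, against 15.9 and 12.1% of all genes tested (0 fell without any one library other than cluster KO 1).

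Among 16 transcription factors of granulocyte precursors, all tested, 5 rose and 1 fell, against 15.9 and 12.1% of all genes (3 rose without cluster KO 2 or without wildtype 2, and 0 fell without cluster KO 2, wildtype 2 or wildtype 3), with a median log2 fold change of 0.31. Spi1, which encodes PU.1, was at 72.8, 104 and 118 CPM in cluster KO marrow and 36.7, 31.8 and 23.7 CPM in wildtype marrow (1.67, SE 0.21, edgeR adjusted p = 0.00189). Cebpd (1.42, SE 0.22) and Cebpb (0.85, SE 0.16) also rose. Cebpa (-0.74, SE 0.46) and Runx1 (-0.24, SE 0.13), looked up outside the naming rule, leaned the other way. Neither of these passed (edgeR adjusted p = 0.258 and 0.19). Myb, an activator in early precursors, fell by 0.39 (SE 0.10, edgeR adjusted p = 0.0161; 0.0523 to 0.0677 without cluster KO 2, wildtype 2 or wildtype 3). Gfi1 and Cebpe, which act at the promyelocyte and myelocyte stages and were looked up outside the naming rule, were at 17.3 to 18.5 and 2.86 to 6.11 CPM in cluster KO and at 12.3 to 18.7 and 2.35 to 3.73 CPM in wildtype libraries, and neither passed (edgeR adjusted p = 0.297 and 0.212). In cluster KO 2, where Elane was lowest, Spi1 was at 104 and Gfi1 at 17.8 CPM, both between the other cluster KO libraries. Cebpe was at 6.11, 2.86 and 4.59 CPM in cluster KO 1, 2 and 3, the order of Elane in these libraries. The wildtype libraries did not share that order, with Cebpe at 2.35, 2.54 and 3.73 CPM in wildtype 1, 2 and 3. Cebpe was thus highest in wildtype 3, the lowest of the wildtype libraries for Elane. A link between the genes was not tested.

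Of 24 progenitor and promyelocyte genes, all tested, 11 rose and 1 fell, against 15.9 and 12.1% of all genes, with a median log2 fold change of 0.58. Hp, the haptoglobin gene, was at 139, 91.4 and 82.4 CPM against 22.1, 40.1 and 27.1 CPM (1.81, SE 0.25, edgeR adjusted p = 0.00248), and Igsf6 rose by 1.36 (SE 0.20). Nkg7, a granule membrane gene, was at -0.12 (SE 0.17, edgeR adjusted p = 0.634). Fcnb, the ficolin gene of early neutrophil precursors, looked up outside the naming rule, was at 153, 52.2 and 51.1 CPM against 22.7, 39.8 and 52.6 CPM and did not pass (edgeR adjusted p = 0.0767). It was high in cluster KO 1 like the 5 genes, but not low in cluster KO 2. Without cluster KO 2 or any one wildtype library 7 of the 24 genes rose, and 0 fell without any one library other than cluster KO 1, without which 2 fell.

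Most genes of the secondary granules, which are made later, were higher in cluster KO, and their median level relative to the wildtype mean was 1.58, 1.21 and 1.10 on the log2 scale in cluster KO 1, 2 and 3 and -0.38, 0.17 and 0.21 in wildtype 1, 2 and 3. Of 16 genes listed here as secondary granule genes, all tested, 10 rose and 0 fell, against 15.9 and 12.1% of all genes. Their median log2 fold change was 1.39, and 1 fell without cluster KO 3. Ltf, the lactoferrin gene, was at 413, 325 and 378 CPM in cluster KO marrow and 89.2, 156 and 139 CPM in wildtype marrow (1.54, SE 0.19, edgeR adjusted p = 0.00168). Ngp was at 4451, 3125 and 3113 CPM against 953, 1465 and 1304 CPM (1.52, SE 0.18). Mmp8, the neutrophil collagenase gene, rose by 2.72 (SE 0.35). Anxa1, which is in the list but not particular to this granule, rose by 1.596 (SE 0.10). The ratio of cluster KO 1 to cluster KO 2 ran from 0.479 to 2.10 over the 16 secondary granule genes. It ran from 2.99 (Prtn3) to 325 (Elane) over the 5 primary granule genes. Over the other primary granule contents tested it ran from 0.777 (Cd68) to 2.41 (Prss57). In the progenitor and promyelocyte list it was 2.92 for Fcnb. It was 72.8 for Dmkn of that list, looked up outside the naming rule, which had 1 read in cluster KO 2. Cx3cr1 (3.37) of the monocyte and macrophage markers and Ccr3 (3.05) of the basophil, mast cell and eosinophil markers also exceeded Prtn3. Both have low levels and were looked up outside the naming rule. Ratios as wide as that of Prtn3 were thus not confined to the 5 genes. Camp, the cathelicidin gene, was at 2345, 1187 and 1096 CPM against 770, 1399 and 1650 CPM and did not pass (edgeR adjusted p = 0.595).

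Of 18 tertiary granule and mature neutrophil genes, all tested, 7 rose and 0 fell, against 15.9 and 12.1% of all genes, with a median log2 fold change of 0.66. Fpr1, the formyl peptide receptor gene, was at 18.5, 18.2 and 14.2 CPM against 4.83, 3.17 and 2.05 CPM (2.33, SE 0.31, edgeR adjusted p = 0.00217). S100a8 and S100a9, the calprotectin subunit genes, were at 0.34 (SE 0.37) and 0.41 (SE 0.35) and did not pass (edgeR adjusted p = 0.534 and 0.419). The count of risen genes was 2 without cluster KO 2 and 3 without wildtype 1 or without wildtype 2. Whether the primary granule genes differ from these later sets in their response was not tested.

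**Figure D4:**
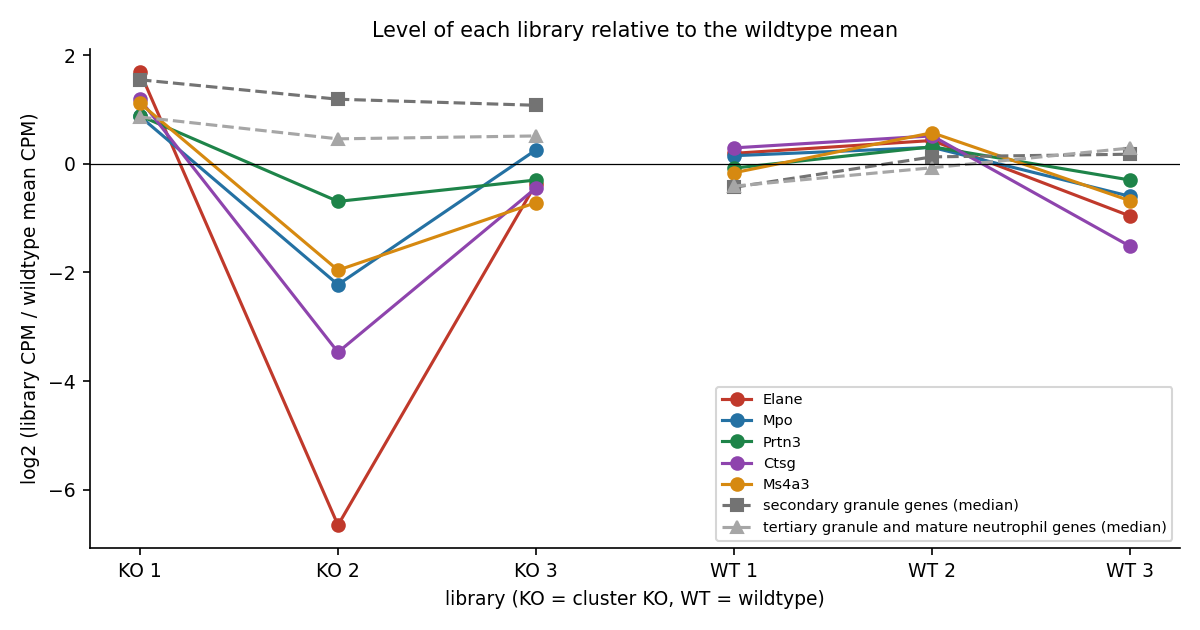
Level of each library relative to the wildtype mean, as log2 ratio of CPM, for the 5 primary granule genes (coloured) and as the median over secondary granule and over tertiary granule and mature neutrophil genes (grey, 0.1 CPM added), cluster KO libraries on the left and wildtype on the right. The coloured lines spread apart and dip in cluster KO 2 while the secondary granule median stays above 0 in all 3 cluster KO libraries.

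**Figure D5:**
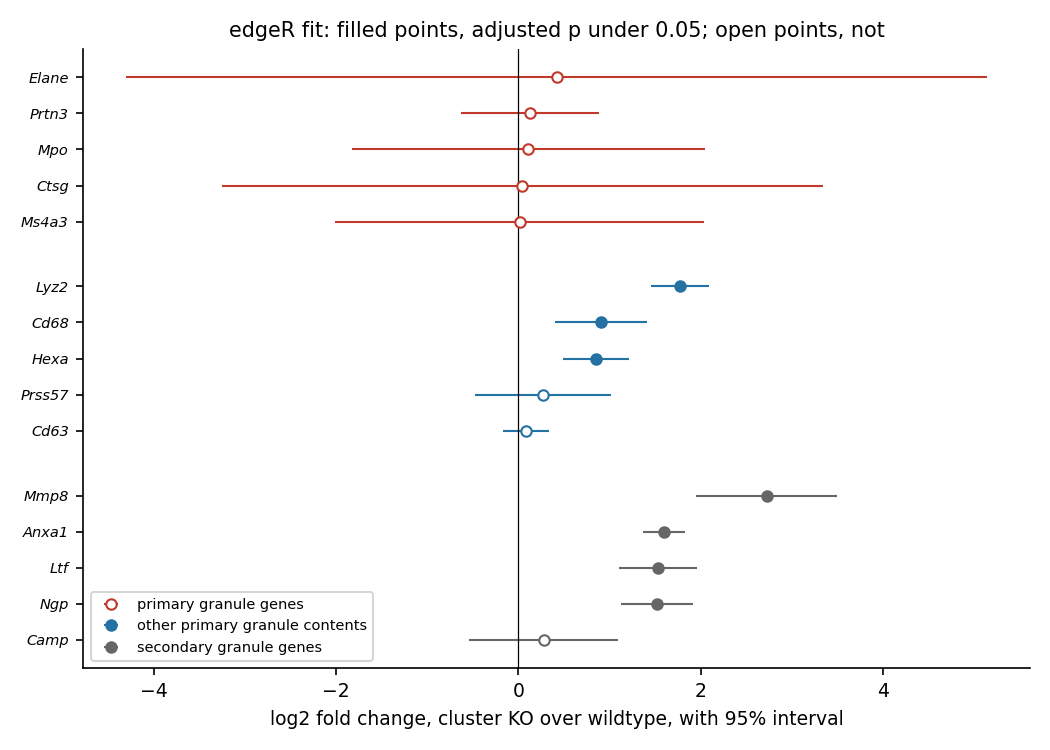
Log2 fold change, cluster KO over wildtype, with its 95% interval for the 5 primary granule genes (red). Some, not all, of the other primary granule contents (blue) and secondary granule genes (grey) that the text names are also shown. Filled points passed the edgeR test at an adjusted p under 0.05. All red points are open and near 0 with intervals reaching from -4.30 to 5.14 for Elane, while 3 of 5 blue and 4 of 5 grey points are filled, all to the right of 0.

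Relatives and neighbours of the 5 genes had other levels. Of the 17 other genes of the Ms4a family listed, 11 were tested, 2 rose and 1 fell, near the 15.9 and 12.1% of all genes. Ms4a6b had 63.9, 62.5 and 60.7 CPM in cluster KO marrow, while wildtype marrow had 30.6, 29.8 and 23.3 CPM (log2 fold change 1.16, SE 0.15, edgeR adjusted p = 0.00197). Ms4a2, the mast cell and basophil gene next to Ms4a3, was at 0.456, 0 and 1.86 CPM against 5.06, 0 and 0.921 CPM. Mcpt8, the basophil protease gene next to Ctsg, was at 3.97, 10.9 and 6.91 CPM against 15.1, 1.07 and 3.43 CPM, in an order unlike that of Ctsg. Cfd, the complement factor D gene beyond Elane, had 0, 0 and 5 reads in cluster KO marrow and 0, 21 and 0 in wildtype marrow. Of 21 genes other than Elane whose human counterparts are linked to congenital neutropenia, 20 were tested, 3 rose and 2 fell, near the 15.9 and 12.1% of all genes, with a median of 0.10. In that list 1 rose without cluster KO 2 or without wildtype 3, and between 0 and 4 fell without single libraries.

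Ranked by Pearson correlation of log2 CPM over the 6 libraries with the mean of the 5 standardised genes, the most alike of the other 9051 genes were Arnt (r = 0.97), Ccdc93 (0.97), Ifi27 (0.96), Rfx5 (0.96), Efr3a (0.96) and Plekha8 (0.94). They were 1.196 to 1.68 times higher in cluster KO 1 than in cluster KO 2, and Efr3a was not in the members' order, with wildtype 3 above wildtype 1. For Elane alone they were Ccdc93 (r = 0.99), 2700099C18Rik (0.98), Stat2 (0.97), Zfp407 (0.96), Abi1 (0.95) and Hltf (0.95). With 6 libraries that share a sequencing pool and so many genes ranked, such values describe these libraries alone.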

How the data were processed

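Bone marrow extracts were made into poly(A) RNA-seq libraries with a Nextera kit without strand information, per the labels' protocols. Reads were demultiplexed, aligned and counted with tools among which the submitters' processing notes list bcl2fastq, TopHat2 and HTSeq (mm10). No tool version or annotation release is given in the sources used here. The authors deposited raw counts of reads for each gene. The HTSeq summary rows (on average 25.4% of reads in cluster KO and 29.9% in wildtype) were left out.

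Symbols, spans and exon lengths came from GENCODE M21 (47224 of 47729 genes matched), and promoters from RefSeq on GRCm38.p6. Genes were tested with edgeR 4.0.16 in R 4.3.3 (TMM, filterByExpr with a minimum count of 10, robust quasi-likelihood fit, genotype as the only term, adjusted over all 15686 genes). Standard errors are the fold change over the square root of F. The test was checked on simulated data. Replicates differed by more than sampling noise (chi-square per degree of freedom 11.1 to 70.9). Intervals on zero counts cover counting error only. Alternatives were DESeq2 1.42.0, RLE factors, no filter, a non-robust fit, a replicate block and leaving out each library.

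Members and lists were chosen with earlier results of these data known. Named genes were, per list, up to 4 with the smallest p and 2 with the highest level, the genes ranked most alike, and neighbours; exceptions are marked as looked up outside the rule. Some genes that the rule names are not reported here.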

Additional observations from a re-analysis of the deposited data

How the results depend on the processing

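The log2 fold changes of the 5 genes stayed under the threshold in every alternative run. With the replicate number as a block they were -0.52 for Elane, -0.20 for Mpo, -0.012 for Prtn3, -0.33 for Ctsg and -0.36 for Ms4a3, all reversed. Same-numbered libraries did not deviate together (Pearson r across genes of -0.12, 0.02 and -0.09 for numbers 1 to 3), and not every library correlated best with its own number. These weak values are linked, since deviations were taken from the mean of each genotype, and cannot exclude a shared batch. No label states a pairing, so the numbers are read here as names of libraries. Leaving out single libraries moved the values between -1.37 and 1.004 for Elane, -0.52 and 0.60 for Mpo, -0.49 and 0.41 for Prtn3, -1.30 and 0.59 for Ctsg, and -1.22 and 0.48 for Ms4a3. Of the named genes that did not pass, Camp moved between -0.17 and 0.51, Cd63 between -0.044 and 0.15, Prss57 between -0.19 and 0.51 and S100a8 between -0.074 and 0.67.

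Over all genes, 2487 were higher and 1895 lower; the block gave 1331 and 865, DESeq2 3096 and 2126, and leaving out single libraries 1258 to 3151 and 742 to 2579.
Among the lists, 0 genes of the protease processing list fell with DESeq2, without the filter and with the replicate block. With the block 0 of the transcription factors, 0 of the progenitor and 0 of the neutropenia genes fell, while 5 progenitor, 4 tertiary granule and 1 neutropenia gene rose; with RLE factors or no filter 0 progenitor genes fell. Leaving out single libraries gave 3 to 6 risen genes of other primary granule contents, 3 to 5 transcription factors, 7 to 11 progenitor, 2 to 7 tertiary granule and 1 to 4 neutropenia genes. Fallen genes then numbered 0 to 1 for protease processing, 0 to 1 for transcription factors, 0 to 2 for progenitor, 0 to 1 for secondary granule and 0 to 4 for neutropenia genes. Median log2 fold changes ranged over 0.45 to 0.76 for other primary granule contents, 0.13 to 0.68 for protease processing, 0.27 to 0.39 for transcription factors and 0.051 to 0.13 for neutropenia genes. At 52 reads or more for each of the 5 genes, counting error is small beside the spread between libraries.
The cause of these shifts was not tested.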
